A study of Mus musculus with 6 samples.

Results

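H3K27me3 was examined at 1742 regions of wild-type neural stem cells (NSC) that lay inside genes but away from promoters. They were chosen from the 12982 peaks of the NSC ChIPSeq library by their position and length, as the autosomal peaks shorter than 4000 bp that overlapped the body of a protein-coding gene and lay more than 5 kb from every annotated transcription start site (TSS) of any gene. Of the 9430 autosomal peaks, the other short peaks were 3296 within 5 kb of a coding TSS, 805 within 5 kb of the TSS of another kind of gene and 3172 between genes, and 415 were 4000 bp or longer. The study set mouse glioma-initiating cells against NSC with basal levels of the Polycomb protein Bmi1 and NSC Bmi1Over with a Bmi1 transgene. The tumour cells were not analysed here, and NSC and NSC Bmi1Over were compared with each other. Both were primary cultures from E16.5 mouse embryos. NSC were wild type, and NSC Bmi1Over carried STOPFloxBmi1;NestinCre, in which Cre driven by the Nestin promoter releases a Bmi1 transgene in neural progenitors. ChIPSeq was kept for 1 library of each condition after the weaker replicate had been discarded, so differences between the lists have no replicate check, and RNASeq was measured in 2 cultures of each.

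H3K27me3 is the trimethylation of lysine 27 of histone H3. It is laid down by Polycomb repressive complex 2 through Ezh2, is read by the complex that contains Bmi1, and marks silenced genes, above all developmental regulators whose CpG islands recruit the complex. From such sites the mark can spread over whole gene bodies and the sequence between genes, where it forms wide domains of low enrichment.

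The RNASeq libraries held between 18112100 and 61353076 reads counted on genes. Markers of neural stem cells (Nes, Sox2, Fabp7, Olig2 and others, 10 genes) summed to between 7402 and 8352 CPM, the counts scaled by TMM library size, in the 4 libraries. The 4 erythroid markers were at 0 in every library, and the summed levels of the mesenchymal, microglial, endothelial and oligodendrocyte markers stayed between 0.91 and 15.6 CPM. The 5 neuronal markers summed to between 830 and 962 CPM, most of it Map2, with 919 CPM in the first NSC library. The 4 astrocyte markers summed to 140 and 111 CPM in NSC and to 84.6 and 65.1 CPM in the libraries labelled NSC Bmi1Over, with 1 of the 4, Aldh1l1, lower. Bmi1 itself stood at 133 and 124 CPM in NSC and at 119 and 113 CPM in the libraries labelled NSC Bmi1Over (log2 fold change −0.15 ± 0.12 (SE), adjusted p = 0.463, edgeR), so the counts do not show the rise that the label names, and each direction below is that of the libraries so labelled.

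Sequence is shown for members at both extremes, as the 300 bp around the centre of each peak on the plus strand of GRCm38 (mm10), with every CG dinucleotide in capitals. The first 3 come from the widest members, of which those in Skap2 and Cadps2 sit in clusters of 36 and 14 members, and the other 3 from the members with the highest fold enrichment, which stand alone. None of the 6 stretches touches an annotated exon. The letters come from the RefSeq copy of the assembly.

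Skap2, intron 4, among the widest, chr6:51946293-51946592: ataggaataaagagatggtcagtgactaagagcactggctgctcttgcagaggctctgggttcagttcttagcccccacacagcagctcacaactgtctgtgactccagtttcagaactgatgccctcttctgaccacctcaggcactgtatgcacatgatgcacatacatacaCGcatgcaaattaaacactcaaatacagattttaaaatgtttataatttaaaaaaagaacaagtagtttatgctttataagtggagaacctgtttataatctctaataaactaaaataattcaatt
Fgfr2, intron 2, among the widest, chr7:131643877-131644176: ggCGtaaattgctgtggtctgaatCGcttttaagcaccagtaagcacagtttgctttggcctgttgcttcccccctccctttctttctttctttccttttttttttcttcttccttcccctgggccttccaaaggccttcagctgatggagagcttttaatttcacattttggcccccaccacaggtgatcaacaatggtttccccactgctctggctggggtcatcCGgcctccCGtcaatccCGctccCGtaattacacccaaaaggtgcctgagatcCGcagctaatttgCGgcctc
Cadps2, intron 28, among the widest, chr6:23272377-23272676: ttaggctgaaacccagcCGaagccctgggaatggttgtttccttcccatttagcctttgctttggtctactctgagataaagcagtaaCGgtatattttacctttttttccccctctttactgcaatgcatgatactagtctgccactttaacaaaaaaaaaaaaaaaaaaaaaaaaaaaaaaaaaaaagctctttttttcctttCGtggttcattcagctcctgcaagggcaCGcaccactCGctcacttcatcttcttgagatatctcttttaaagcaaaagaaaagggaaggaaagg
Cdk5rap2, intron 4, highest fold, chr4:70378036-70378335: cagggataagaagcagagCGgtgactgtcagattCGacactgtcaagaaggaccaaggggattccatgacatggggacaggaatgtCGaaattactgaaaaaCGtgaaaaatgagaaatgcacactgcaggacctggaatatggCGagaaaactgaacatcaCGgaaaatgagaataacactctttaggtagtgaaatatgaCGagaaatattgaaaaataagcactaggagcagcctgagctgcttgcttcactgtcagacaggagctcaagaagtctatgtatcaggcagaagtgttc
Chl1, intron 3, high fold, chr6:103649010-103649309: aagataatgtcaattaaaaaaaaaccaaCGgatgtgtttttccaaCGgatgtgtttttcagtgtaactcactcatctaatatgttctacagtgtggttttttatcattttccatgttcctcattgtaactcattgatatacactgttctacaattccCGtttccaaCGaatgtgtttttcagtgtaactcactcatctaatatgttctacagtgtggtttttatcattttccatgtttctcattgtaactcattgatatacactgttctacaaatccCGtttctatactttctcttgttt
Cmss1 and Filip1l, intron 1, high fold, chr16:57391428-57391727: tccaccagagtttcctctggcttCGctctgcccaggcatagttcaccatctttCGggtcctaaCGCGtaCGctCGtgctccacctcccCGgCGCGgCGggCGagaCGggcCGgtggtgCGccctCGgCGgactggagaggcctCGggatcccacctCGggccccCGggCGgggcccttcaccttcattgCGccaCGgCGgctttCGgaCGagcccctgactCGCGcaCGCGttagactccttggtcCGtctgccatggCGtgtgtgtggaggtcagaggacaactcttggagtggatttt

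The 6 windows differed widely in base composition. The window in Skap2 held 1 CG in 300 bp, with 38% GC and 76.7% of its bases masked as repeats in the reference, and that in Fgfr2 held 8 with 51% GC. The window shared by the overlapping genes Cmss1 and Filip1l held 31 CG dinucleotides and had 66.3% GC, and it was the only one of the 6 that met the limits for a CpG island-like window given below.

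The members were short and weakly enriched. These values come from the list that chose the members and are given without a test. Their length ran from 200 to 3897 bp with a median of 367 bp, and the middle 50% of members measured 248 to 618 bp. The fold enrichment that MACS2 reports, the ratio of reads to its background, ran from 3.52 to 25.4 with a median of 4.07. It was below 5 in 1606 members (92.2%) and 10 or more in 7. Short promoter peaks had a median fold of 4.17, intergenic ones of 4.05 and the peaks of 4000 bp or more of 6.92. Together the members covered 970341 bp, or 9.48% of all autosomal sequence under an NSC peak. At the limits of the rule, the longest member, in Skap2, measured 3897 bp, and the shortest peak left out for its length, in Fbxl17, measured 4080 bp at a fold of 4.98. The member nearest to a TSS, in Stk31, lay 5014 bp away and the closest peak left out, at Tmem267, 4999 bp. There were 23 longer peaks that met every other limit.

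The sequence eligible by position came to 670 Mb, so that the members lay at a density of 2.6 per Mb. Intergenic sequence gave the same density, 2.6 peaks per Mb of 1222 Mb, and the sequence within 5 kb of coding TSSs gave 9.37 per Mb of 352 Mb. Among the autosomes, the density of members ran from 1.1 per Mb on chromosome 10 to 4.89 per Mb on chromosome 9. The median distance from a member to the nearest TSS was 15794 bp (middle 50% of members from 9146 to 29938 bp), and the farthest lay 252442 bp away.

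Members came in runs. When members at most 10 kb apart were joined, the 1742 fell into 541 clusters, of which 256 held a single member, 178 held 2 to 4 and 107 held 5 or more. The 107 large clusters held 1009 members (57.9%), and members alone in their cluster made up 14.7%. Another NSC peak of any class lay within 5 kb of 1492 members (85.6%), close to the 83.4% of promoter peaks and the 83.6% of intergenic peaks.

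The largest cluster held 36 members in 63905 bp of Skap2 (chr6:51939331-52003235), the gene of an adaptor protein of Src-family signalling in immune cells. It enclosed 2 wide peaks of 4083 and 4237 bp that hold no coding TSS. On one side it ended 447 bp from a 7868 bp peak over an internal TSS of Skap2, 73.665 to 81.532 kb from the start of the gene. On the other it ended 371 bp from an 8799 bp peak, which lay 0.145 to 8.943 kb from that start. The next was 28 members in Ccdc73 (chr2:104929676-104981600), followed by 23 in Casz1 (chr4:148842417-148877787), a zinc finger transcription factor of heart and neural development, and 19 in Iqch (chr9:63449362-63487927), with a further 15 in the same gene. The clusters of Casz1 and Iqch ended 192 bp and 413 bp from a peak of 4000 bp or more, that of Ccdc73 134318 bp from the 26905 bp peak over the TSS of Wt1, a regulator of kidney development. The cluster of 18 in Blk, a B-cell kinase, lay 109113 bp from a 39955 bp peak over the TSS of Gata4, and the 15 in Lrba lay 269 bp from a 6967 bp peak over the TSS of Mab21l2. Other clusters had no wide peak near: the 18 in Sycp2 were 2372327 bp and the 16 in Myo1d 3265146 bp from the nearest.

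**Figure D1:**
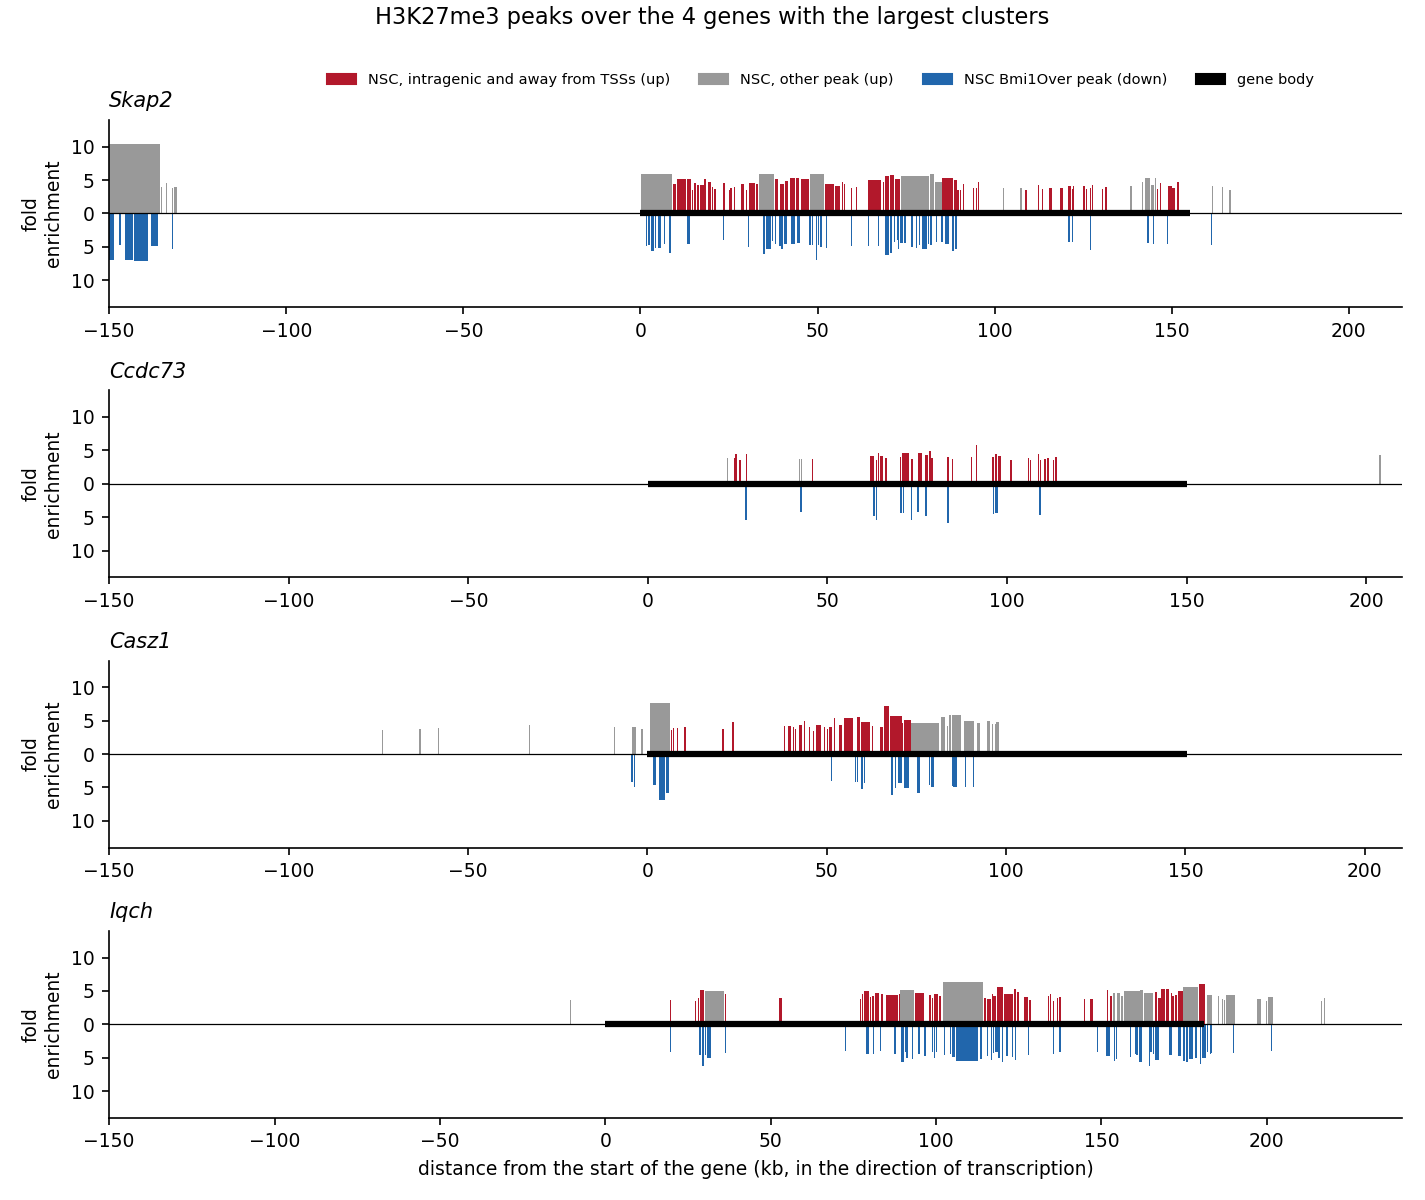
H3K27me3 peaks along Skap2, Ccdc73, Casz1 and Iqch, the 4 genes with the largest clusters, by distance from the start of the gene in kb. Bars above the line are NSC peaks and bars below it NSC Bmi1Over peaks, each as high as its fold enrichment and drawn at least wide enough to be seen, with members in red. The red bars form dense runs next to wider grey peaks in Skap2, Casz1 and Iqch, while in Ccdc73 no wide peak stands within the gene. The NSC Bmi1Over list has fewer peaks in each panel, with 69 against 84 in Skap2 and 21 against 48 in Casz1.

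Distance from a wide peak went with the size of the cluster. The median distance to the nearest peak of 4000 bp or more was 150950 bp for members in clusters of 5 or more, 596829 bp in clusters of 2 to 4 and 1176116 bp for single members. In all, 366 members (21%) lay within 10 kb and 668 (38.3%) within 100 kb of such a peak, against 13.7% and 21.8% of short promoter peaks and 22% and 40.3% of intergenic ones. Of the 668, the wide peak held the TSS of the host gene itself for 228 and that of another coding gene only for 85. It held no coding TSS for 355. A TSS counted only if it lay inside the wide peak. The 355 therefore include members near wide peaks that begin just beside a TSS, such as the 8799 bp peak that begins 0.145 kb from the start of Skap2. The remaining 1074 members (61.7%) had no wide peak within 100 kb.

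The second library was then used as a measure that had no part in the choice. An NSC Bmi1Over peak overlapped 394 of the 1742 members by at least 1 bp (22.6%, 95% Wilson interval 20.7 to 24.6). The share over all 9015 short autosomal peaks was 22.5%, and it was 23.5% (22.1 to 25) for promoter peaks and 20.8% (19.4 to 22.3) for intergenic peaks, so the pooled share of members lay within 2 percentage points of both classes. All 415 peaks of 4000 bp or more were overlapped. As each condition is 1 library, these intervals cover counting error only. They also treat peaks as independent, although 57.9% of members lay in clusters of 5 or more, so they can be too narrow. Depth is not part of the lists and was unequal by the methods of the study, and the part of depth in these shares was not tested.

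The share rose with the length of the peak. Among members of 200 to under 250 bp, 31 of 442 were overlapped (7.01%), among those of 500 to under 750 bp 68 of 242 (28.1%), and among those of 2000 bp or more 51 of 58 (87.9%). Promoter peaks went from 5.1% to 86.5% and intergenic peaks from 6.87% to 92.3% over the same bins. Promoter peaks were longer, with a median of 429 bp against 367 bp, and at matched length the members' share was higher than theirs in all 8 bins. The gap was 19.9% (14.9 to 26) against 11.2% (8.3 to 15.1) at 400 to under 500 bp, 39.8% (31.6 to 48.7) against 28% (22.8 to 34) at 750 to under 1000 bp and 61.4% (53.5 to 68.8) against 51.8% (47.2 to 56.4) at 1000 to under 2000 bp, and the intervals overlapped in each of the 8. Against intergenic peaks the members were higher in 5 bins and lower in 3. By fold, the members' share went from 7.23% below 3.8 to 61.2% between 5 and 6, then to 3 of 8 between 6 and 10 and 7 of 7 at 10 or more.

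**Figure D2:**
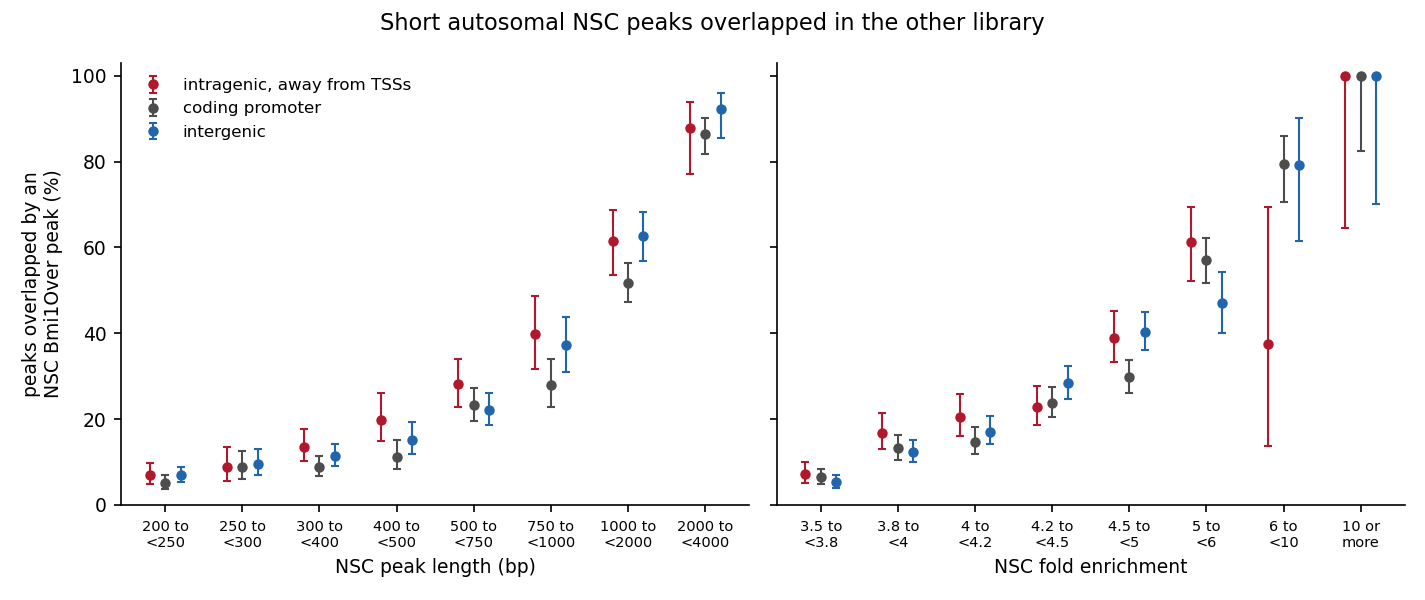
Share of short autosomal NSC peaks overlapped by an NSC Bmi1Over peak (y axis, %) by NSC peak length in bp (left) and by NSC fold enrichment (right). Points are shares and bars 95% Wilson intervals for members (red), promoter peaks (grey) and intergenic peaks (blue). All classes climb from under 10% in the shortest bin to over 85% in the longest, and the members fall to 37.5% with a wide interval between folds of 6 and 10, a bin of 8 members.

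Single members were overlapped less often than clustered ones, at 9.38% (6.38 to 13.6) of 256 against 19.3% (16 to 23.1) of 477 in clusters of 2 to 4 and 27.6% (24.9 to 30.4) of 1009 in clusters of 5 or more. Their median lengths were 280, 358 and 406 bp. In each of 4 bins of length the order of the 3 shares was the same, with wider intervals. Between 300 and 500 bp, 10.1% (5 to 19.5) of 69 single members, 14.8% (9.96 to 21.3) of 149 in clusters of 2 to 4 and 17.9% (14 to 22.6) of 302 in large clusters were overlapped. Between 500 and 1000 bp it was 18.8% (8.89 to 35.3) of 32, 26.4% (18.4 to 36.3) of 91 and 36% (30.2 to 42.2) of 242, so the intervals overlapped in both bins. Members within 10 kb of a wide peak were overlapped in 36.9% of cases (32.1 to 41.9), and those more than 1000 kb from one in 16.9% (14.2 to 19.9), with median lengths of 491 and 337 bp.

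Where both libraries had a peak, the overlapped members had a median fold of 4.43 in NSC and the overlapping NSC Bmi1Over peak one of 4.73. The lowest fold listed was 3.52 in NSC and 4.03 in NSC Bmi1Over, so the medians start from different floors and are not compared. NSC Bmi1Over peaks covered a median of 43.3% of an overlapped member, and at least 50% of 165 of the 394. Under the same rule the NSC Bmi1Over list gave 911 peaks, with a median length of 349 bp. Of these, 726 (79.7%, 77 to 82.2) overlapped an NSC peak, 462 (50.7%) a member and 264 an NSC peak that is no member. As the lists differ in size and the libraries in depth, the lower share in one direction and the higher share in the other are counts of these lists and not a loss or gain of the mark.

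The 5 widest members lay in Skap2 (3897 bp, fold 4.94), Fgfr2 (3711 bp, fold 6.12), Tfap2b (3684 bp, fold 5.38), Cadps2 (3639 bp, fold 5.47) and the gene model Gm37240 (3559 bp, fold 4.79). The member in Tfap2b, a transcription factor of neural crest, reached the coding part of exon 7, and the other 4 were intronic. NSC Bmi1Over peaks cut into each of the 5, with 2 or 3 separate peaks that covered between 14.1% (Skap2) and 47% (Tfap2b) of its length. The annotation gives the receptor gene Fgfr2 a body of 2960900 bp, so its members are placed in it by that span.

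The highest folds were found elsewhere. They were 25.4 in Cdk5rap2, a centrosomal protein, 19.8 in Chl1, a neural cell adhesion molecule, 17.3 in the overlapping Cmss1 and Filip1l, 14.9 in Fbxw4 and 12 in Kctd16. The same 5 also had the highest folds among overlapping NSC Bmi1Over peaks, at 21.6, 18, 11.1, 9.01 and 10.5 in that order. Together with 2210408I21Rik and E030030I06Rik (both 10.1) they made up the 7 members with a fold of 10 or more. Each was the only member of its cluster, measured between 355 and 884 bp, and lay between 403685 and 36683941 bp from the nearest peak of 4000 bp or more. For the first 5, the next peak of any class lay between 49851 bp (Kctd16) and 2028012 bp (Chl1) away.

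These 7 members shared a feature of sequence. In the 300 bp at the centre of a peak, stretches of 32 bases that occur at more than 1 place in the reference assembly, on either strand, were present in 7 of the 7, in 41 of the 129 members with a fold from 5 to under 10 (31.8%) and in 347 of the 1606 below 5 (21.6%). Repeated stretches made up a median of 26.4% of the positions in the 7 windows, from 6.69% in Kctd16 to 46.5% in Chl1, while the median of both other groups was 0. In the window of Fbxw4 one stretch occurs 338 times in the assembly and in that of Cdk5rap2 one occurs 173 times. In that of Cmss1 and Filip1l the most frequent occurs 5 times. Copies that the assembly lacks are not counted, so these numbers need not be those of the genome. The authors discarded reads that mapped to more than 1 place, and the part of repeated sequence in these folds was not tested. Over all classes the share of windows with any repeated stretch was 22.7% in members, 19.3% in promoter peaks and 27.4% in intergenic peaks.

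Most members were intronic. No exon of any annotated gene was touched by 1522 of them (87.4%), and 220 (12.6%, 11.2 to 14.3) touched one, in 153 cases a coding one. Intron 1 of the host's longest transcript held 403 members and intron 2 held 235. At the centre, where windows of equal length can be compared, 10.5% (9.15 to 12) of members touched an exon and 6.6% (5.53 to 7.87) a coding exon, against 8.68% and 5.36% of the 2214960 tiles of 300 bp cut from the eligible sequence. When the host gene was cut into 4 equal parts from its start to its end, they held 376, 509, 483 and 369 members by their centres, and the centres of 5 lay outside the gene.

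Islands of CpG were rare. A window was called CpG island-like at a GC content of at least 50% and an observed to expected CpG ratio of at least 0.6. This held for 32 members (1.84%, 1.3 to 2.58), against 0.33% of the tiles, 17.9% (16.7 to 19.3) of promoter peaks and 1.29% (0.954 to 1.75) of intergenic peaks. The letters CGCG, which read the same on both strands, were found in 5.45% (4.48 to 6.62) of members and 2.69% of tiles. The median GC content was 44.7% in members and 42.3% in tiles, and 50% in promoter peaks. Bases masked as repeats made up a mean of 18.4% in members and 28.4% in tiles. Runs of 4 CA units, on either strand, were found in 8.27% (7.06 to 9.65) of members and 9.75% of tiles, and runs of 4 GA units in 3.79% (2.99 to 4.79) and 5.09%. The peaks rest on reads that map to 1 place, whereas the tiles include all sequence, and the part of mappability in these differences was not tested.

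**Figure D3:**
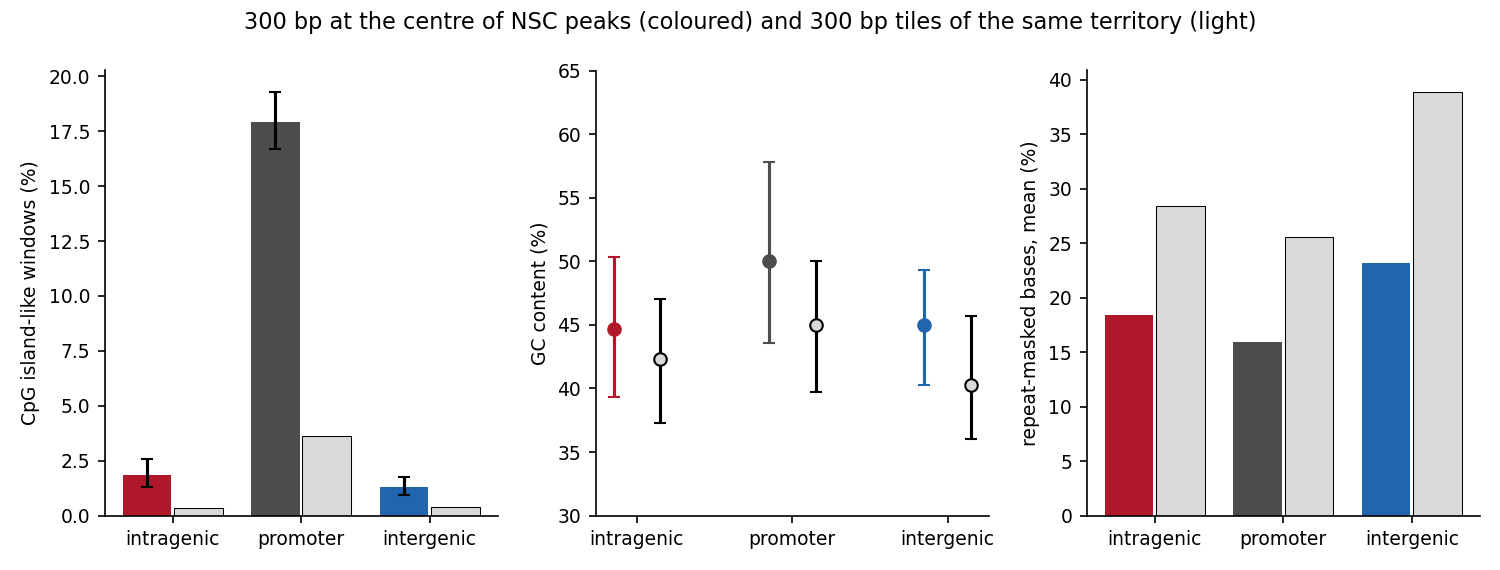
CpG island-like share with 95% Wilson intervals (left), GC content as median and middle 50% (centre, on an axis that starts at 30%) and mean share of repeat-masked bases (right). Each is taken in the 300 bp at the centre of NSC peaks (coloured) and in 300 bp tiles of the same kind of territory (light), for intragenic sequence away from TSSs, coding promoters and intergenic sequence. The red bar of 1.84% in the left panel stands above its tiles at 0.33% and far below the promoter peaks at 17.9%.

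The 32 CpG island-like members, singled out here after their values were seen, lay mostly in exons. A coding exon was touched by 25 of them and no exon by 7, and they fell in 27 genes or gene pairs. Sptbn4, which encodes a spectrin of axon initial segments, held 5. Jph2, a junctophilin of heart muscle, held a 2483 bp member over exon 5 with 77.3% GC, and Ryr1, the calcium release channel of skeletal muscle, held a 1260 bp member over exon 91 with 76.7% GC and no other peak within 959090 bp. Both were overlapped by an NSC Bmi1Over peak. The ligand gene Wnt10a had a 3362 bp member over exon 4 that was overlapped too, as was that of Cmss1 with Filip1l. In the window of Cmss1 with Filip1l, 42.8% of the stretches of 32 bases occur at more than 1 place in the assembly. The part of this in its peak was not tested. In all, 5 of the 32 were overlapped. Without another peak within 5 kb stood 16 of the 32.

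The members fell in 397 host genes, with 1702 members in a single gene and 40 in overlapping ones. A single member was held by 160 hosts, 2 to 4 by 137 and 5 or more by 100, and 13 genes held 20 or more. Skap2 held the most with 63 members, 19 of them overlapped by an NSC Bmi1Over peak. It was followed by the gene model Gm20388 with 51, Iqch with 50 (28 overlapped), Thsd4, a protein of extracellular microfibrils, with 41, the teneurin Tenm4 with 34, Ccdc73 with 33, the T-cell adaptor Skap1 with 31 and the syntaxin-binding Stxbp5l with 30. Gm20388 is annotated over 4434882 bp and had 0 reads in all 4 libraries. Of its 51 members, 27 also lie in a shorter host, 12 in Gse1, 11 in Cbfa2t3 and 4 in Acsf3, and 24 lie in no other host.

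Hosts often carried the mark at their own promoter. In the NSC list, from which the members also come, 237 of 397 hosts (59.7%) had a peak within 5 kb of a TSS, against 924 of the 13111 other genes with eligible sequence (7.05%). In the NSC Bmi1Over list the same was true of 162 hosts (40.8%) and of 3.11% of the others. Hosts were longer, with a median of 88745 bp against 32425 bp, and the part of length was not tested. Of the 100 hosts with 5 or more members, 78 had a promoter peak in NSC. For 1452 members (83.4%) the nearest coding TSS was that of the host, and 1294 (74.3%) had a nearest coding TSS with a peak within 5 kb. Members in hosts with a promoter peak were overlapped by NSC Bmi1Over peaks in 23.2% of cases (21 to 25.5) and those in other hosts in 20.9% (17.3 to 25), a difference within the intervals.

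Gene families were compared by the number of members per Mb of eligible sequence, beside 2.6 over all eligible sequence. The developmental factors of the homeobox, forkhead, Pax, Sox, Tbx and Gata families had 134 members in 25 of 100 genes, or 18.8 per Mb, the highest density of the lists. Zfhx3 held 22 of them, Foxp2 16, Pax3 14, Lmx1b 10 and Tbx20 9, and 24 of the 25 hosts had a promoter peak. A list of symbols meant for basic helix-loop-helix, nuclear receptor and TEAD factors had 45 members in 10 of 55 genes, with 10 in Sim1 and 4 in Ebf2. It does not describe those families, as it also took in Tfap2b (10), Tcf20 (10), Esrp1 (3) and Tcf7l1 (1) by the form of their symbols and left out the basic helix-loop-helix factor Atoh8 (12). The Wnt, FGF, TGF-beta and Hedgehog genes had 54 members, 8.51 per Mb, of which 28 lay in Tgfbr3, a co-receptor of TGF-beta, and 14 in the long model of Fgfr2. A list of zinc finger genes with symbols of the Zfp, Zic, Zeb, Gli, Prdm, Klf, Ikzf and Casz1 kinds had 79 members, 7.31 per Mb, in 9 of 358 genes, with 29 in Casz1, 16 in Prdm16, 13 in Ikzf3 and 10 in Gli3. Other zinc finger hosts, such as Bnc2 (19) and Plag1 (14), stand outside that list.

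The other lists given here stood between 0.358 and 3.2 members per Mb. Axon guidance ligands and receptors had 17 members (1.62 per Mb) in 5 of 62 genes, 8 of them in Slit1, 4 in Plxna4, 3 in Plxna2 and 1 each in Efna5 and Ntng2. Synaptic adhesion genes had 42 (1.56 per Mb), of which Tenm4 held 34, and potassium channels 27 (3.2 per Mb), of which the imprinted Kcnq1 held 19. Cadherins and protocadherins had 6 members (0.653 per Mb), glutamate and GABA receptors 6 (0.555 per Mb), and phosphodiesterases and adenylate cyclases 2 (0.358 per Mb). Calcium and sodium channels had 10 members (1.99 per Mb), collagens and laminins 15 (3.05 per Mb) and the list of ADAM and ADAMTS symbols 6 (1.41 per Mb), all of them in Adamtsl1, which is ADAMTS-like and no protease. The families share long genes and clusters, and no difference between them was tested.

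Host genes were expressed at low levels. The median host stood at 0.143 and 0.136 RPKM, CPM divided by the exon length in kb, in the NSC libraries and at 0.149 and 0.164 RPKM in those labelled NSC Bmi1Over, and the median of the other genes with eligible sequence lay between 2.27 and 2.34. Hosts under 1 RPKM made up 74.1% in both NSC libraries and 71.5% and 70% in the other pair, and between 42.4% and 43.1% of the other genes were under it. Hosts with a promoter peak had medians of 0.0862 and 0.0789 RPKM in NSC. Hosts without one had 0.363 and 0.378, below the 2.77 and 2.79 of other genes without a promoter peak. Among genes with a promoter peak, those that were no hosts stood at 0.135 in both NSC libraries. In these bulk samples, a gene used in fewer cells and a gene used less in each cell cannot be told apart.

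**Figure D4:**
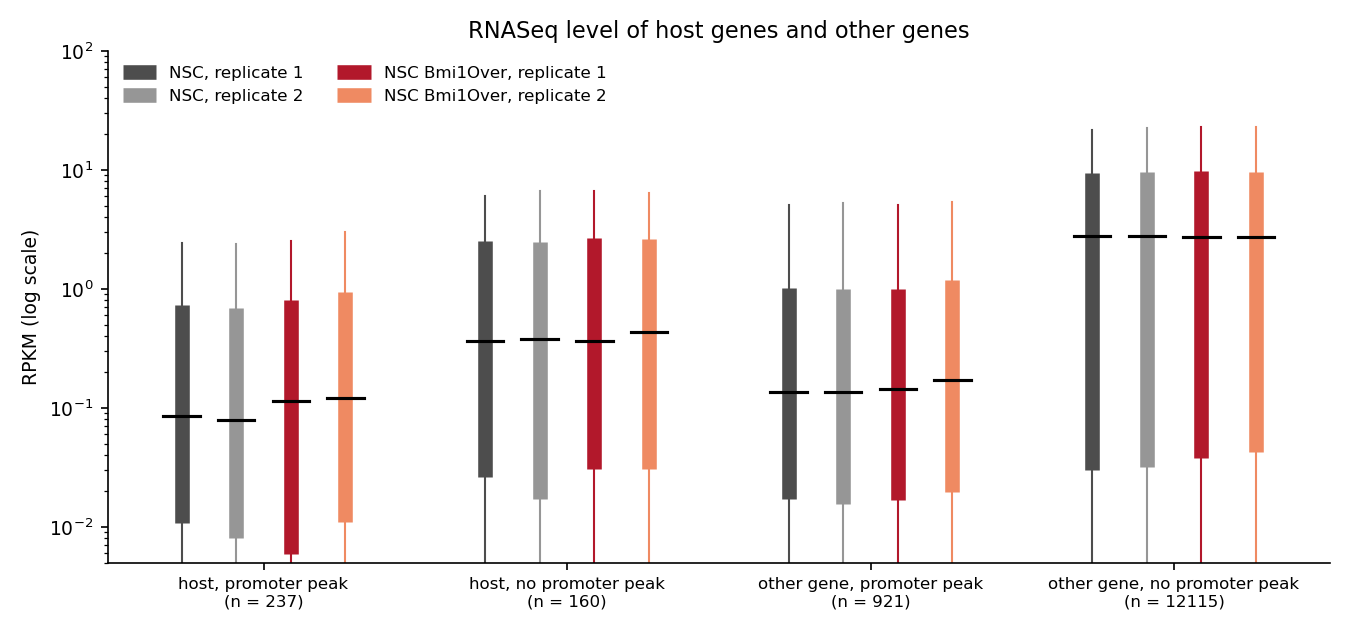
RNASeq level in RPKM (log scale) of host genes and of other protein-coding genes with eligible sequence, split by a promoter peak in NSC, in each of the 4 libraries. Black lines are medians, thick bars the middle 50% and thin lines the middle 80% of genes, cut off at the lower edge of the axis. Hosts with a promoter peak lie lowest, with medians of 0.0789 to 0.122, hosts without one at 0.363 to 0.434 and other genes without one at 2.75 to 2.79.

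The hosts with the most members ranged from silent to well expressed. Skap2, with the most members, stood at 29.1 and 27.3 CPM in NSC and at 28.3 and 18.2 CPM in the libraries labelled NSC Bmi1Over (log2 fold change −0.30 ± 0.20, adjusted p = 0.381, edgeR). Lrba, with 26 members and beside the wide peak over Mab21l2, stood at 41.8 and 35.6 CPM and at 28.1 and 27.8 CPM (log2 fold change −0.47 ± 0.13, adjusted p = 0.0897), and is named outside the rule for host genes. Iqch had 1 or 2 reads in every library and Skap1 a single read in 1 of the 4. Thsd4, at 0.593 to 1.09 CPM, and Stxbp5l, at 0.316 to 0.507 CPM, were near silent, and Ccdc73 stood at 5.04 to 7.52 CPM, with groups that overlapped in all 3. The hosts of the 5 highest folds ranged widely too. Kctd16 stood at 0.317 and 0.119 CPM in NSC, Filip1l at 0.729 and 0.87, Cmss1 at 13.7 and 13 and Fbxw4 at 13.7 and 11.6, while Cdk5rap2 stood at 208 and 228 CPM in NSC and at 262 and 211 CPM in the libraries labelled NSC Bmi1Over. Chl1 stood at 207 and 277 and at 425 and 439 CPM, without overlap (log2 fold change 0.83 ± 0.17, adjusted p = 0.0514, edgeR), which did not pass the threshold.

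Expression of the hosts was then compared between the conditions, a contrast that the choice of members did not use. Enough reads for the test were found for 240 of the 397 hosts. Of these, 13 were higher in the libraries labelled NSC Bmi1Over (5.42%) and 0 were lower at an adjusted p under 0.05 (edgeR's quasi-likelihood test, Benjamini-Hochberg over all 15521 genes). Over all genes tested, 2.03% were higher and 0.122% lower, and over the 9376 with eligible sequence 2.43% were higher and 0.117% lower. At an unadjusted p under 0.05, 64 hosts were higher (26.7%) and 9 lower (3.75%), against 17% and 7.22% of all genes. DESeq2 called 30 hosts higher (12.5%) and 1 lower (0.417%), against 8.39% and 1.25% of all genes. With the replicate number as a block in edgeR, 59 hosts were higher and 5 lower (26.7% called, against 22.3% of all genes). With any read kept, 51 of 360 hosts were higher and 5 lower (15.6% called, against 8.25%). The median log2 fold change was 0.22 over the hosts, with 155 of 240 above 0, and −0.03 over genes with eligible sequence. Hosts with a promoter peak gave 10 of the 13, from 136 tested, and a median of 0.37, and other genes with a promoter peak had 15 of 544 higher and a median of 0.16. Without replicate 1 of NSC Bmi1Over the hosts called numbered 50 (20.2%, against 15.6% of all genes), and without replicate 2 of NSC 33 (13.3%, against 8.93%). Without replicate 1 of NSC they numbered 14, of which 10 were among the 13, and without replicate 2 of NSC Bmi1Over 11, of which 9 were. Some of these fits without 1 culture also called hosts lower. The summed astrocyte markers given above were lower in the libraries labelled NSC Bmi1Over. The sums of 4 endothelial markers (2.66 and 3.84 against 4.74 and 5.49 CPM, Cldn5 at 0) and of 4 microglial markers (1.3 and 1.86 against 2.4 and 3.08 CPM, nearly all P2ry12) were higher without overlap. The part of these markers in the counts was not tested.

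Tenm4, a teneurin that organises neuronal contacts and holds 34 members, had the smallest adjusted p. It stood at 17.9 and 19.9 CPM in NSC and at 50.7 and 54.5 CPM in the libraries labelled NSC Bmi1Over (log2 fold change 1.48 ± 0.13 (SE), adjusted p = 0.0039). The groups did not overlap, which the choice by adjusted p favours. In the NSC Bmi1Over list 9 of its members and its promoter were also covered. St8sia2, the polysialyltransferase of the neural cell adhesion molecule, with 5 members, had 4.28 and 4.71 against 13.5 and 15.1 CPM (log2 fold change 1.68 ± 0.19, adjusted p = 0.00792). Col5a1, a fibrillar collagen with 10 members, had 20.5 and 27.9 against 42.3 and 58.7 CPM (log2 fold change 1.07 ± 0.20, adjusted p = 0.0411). Plxna4, a semaphorin receptor with 4 members, had 17.3 and 20.1 against 32.3 and 41.6 CPM (log2 fold change 0.99 ± 0.16, adjusted p = 0.0334).

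The other 6 named by the rule held 1 to 3 members each. In all 6 the groups did not overlap, which the choice by adjusted p favours. Cacna2d3, an auxiliary subunit of calcium channels, rose from 21.6 and 23.5 to 51.1 and 52.7 CPM. Mctp1, a calcium-binding membrane protein, rose from 1.24 and 0.989 to 6 and 5.04 CPM, the largest log2 fold change of the 10 at 2.29 ± 0.27 (adjusted p = 0.0107). Pcsk6, a proprotein convertase, differed more within NSC, with 27.5 and 56.6 CPM, and reached 136 and 187 CPM. The glycosyltransferase Galnt18, the integrin Itga9 and the acyltransferase Agpat4 had log2 fold changes of 0.92 ± 0.12, 1.61 ± 0.22 and 1.10 ± 0.17. Of the 10, the promoter peak of NSC was also present in the NSC Bmi1Over list at Tenm4, Cacna2d3 and St8sia2 and not at Mctp1, Pcsk6, Plxna4 and Col5a1, while Galnt18, Itga9 and Agpat4 had none in either. With 1 library per condition and no signal track, the absence of a peak does not measure a lower level of the mark.

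**Figure D5:**
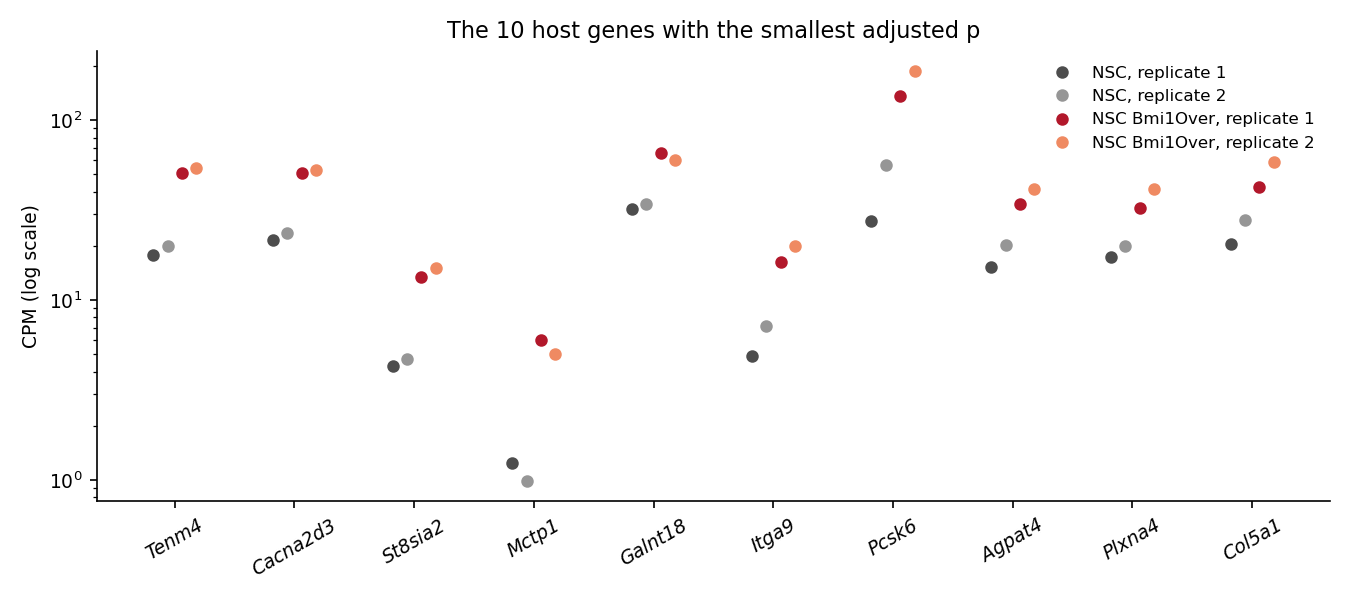
CPM (log scale) in each of the 4 RNASeq libraries for the 10 host genes with the smallest adjusted p. Each dot is 1 culture, NSC in grey and NSC Bmi1Over in red and orange. In each of the 10 both NSC Bmi1Over cultures lie above both NSC cultures, from Mctp1 at about 1 CPM in NSC to Pcsk6, which reaches 187 CPM. The choice of genes by adjusted p favours such a separation.

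The single member in Efna5, the ephrin ligand in the title of the study, measured 211 bp and was not overlapped by an NSC Bmi1Over peak, although the promoter of the gene had a peak in both lists. Efna5 stood at 1.43 and 1.23 CPM in NSC and at 2.68 and 3.24 CPM in the libraries labelled NSC Bmi1Over, without overlap between the groups (log2 fold change 1.17 ± 0.28, adjusted p = 0.0648, edgeR), which did not pass the threshold. It was singled out because the study names it. Among the developmental factors, Zfhx3 stood at 10.2 and 13.2 against 11.5 and 15.5 CPM, Pax3 at 0.127 and 0.514 against 0.8 and 0.227 CPM, and Foxp2 at 4.12 and 3.36 against 2.4 and 3.01 CPM. Of the 10 hosts of that family with enough reads, 0 were called by edgeR, 0 by DESeq2 and 0 had an unadjusted p under 0.05 in edgeR. The Wnt, FGF, TGF-beta and Hedgehog genes had 0 of 4 called by edgeR, with 3 higher at an unadjusted p under 0.05 (17% of all genes) and 2 higher by DESeq2 (8.39% of all genes). Called higher by edgeR were 1 of 5 axon guidance hosts (Plxna4), 1 of 3 synaptic adhesion hosts (Tenm4), 1 of 6 calcium and sodium channel hosts (Cacna2d3) and 1 of 3 collagen and laminin hosts (Col5a1), beside 2.03% of all genes. In the same order, DESeq2 called 3, 1, 1 and 1 higher (8.39% of all genes). At an unadjusted p under 0.05 in edgeR 3, 1, 3 and 1 were higher (17% of all genes), and 0 were lower by any of these counts. With so few hosts in each list, these counts say nothing of the families as such.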

How the data were processed

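H3K27me3 ChIPSeq (1 library each of NSC and NSC Bmi1Over) and RNASeq (2 cultures each) were analysed. For ChIPSeq the authors used Trim Galore for trimming, Bowtie2 2.3.4 for alignment to mm10 and, after multi-mapped reads had been discarded, MACS2 in its broad mode on each library kept. No input control is named in the sources used here. The deposited lists give enrichment per peak as a fold (a ratio to the background), beside the −log10 of the p-value and of the q-value. For RNASeq the authors aligned with STAR and deposited unstranded counts of reads per gene without normalisation.

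Peaks were placed on GENCODE vM21 (GRCm38) in Python 3.11.15. The members were chosen by position and length on the NSC list. The members and lists were chosen with earlier results of these data known. Shares carry 95% Wilson intervals, for counting error alone and with each peak taken as independent. The counts were fitted in edgeR 4.0.16 under R 4.3.3 (filterByExpr, TMM with factors from 0.932 to 1.08, quasi-likelihood test, no replicate block, adjusted p under 0.05 over all 15521 genes), with DESeq2 1.42.0 as an alternative. Each SE is the size of the log2 fold change over the square root of its F statistic. The labels name the cultures only by replica number, so p-values measure the spread between these cultures. With 2 cultures per group an exact permutation test of 1 gene cannot give a two-sided p below 0.333. RPKM used the union of annotated exons. Of 50686 gene identifiers, 50376 matched a symbol. Reads off genes were left out, and those on genes made up 65.9% to 72.2%.

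Named by rule were the 5 widest members, the 5 with the highest fold in NSC, the 5 with the highest fold of an overlapping NSC Bmi1Over peak, the 8 hosts with the most members and the 10 called hosts with the smallest adjusted p. Families were lists of symbol patterns. Sequence features were taken in the 300 bp at the centre of peaks and in tiles of the same length. In a self-test that simulated this comparison on 15271 genes with 200 changed, the fit found 87% of the 2-fold changes and 100% of the 4-fold ones. False calls made up 5.08%. The 200 were drawn from genes with a mean above 1 CPM, so these shares do not cover hosts below it. Interval steps were checked against a direct search on simulated intervals. The alternatives tried are given in the closing section. The mGIC samples of the study were not analysed here. Results for a few genes and 1 family are not reported here.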

Additional observations from a re-analysis of the deposited data

How the results depend on the processing

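The share of members overlapped by an NSC Bmi1Over peak (22.6%) depended on the strength of the peaks. It was 35.8% for members with a −log10 q of at least 3, 45.5% for those of at least 500 bp, 61.8% at a fold of at least 5 and 8.8% for those without another peak within 5 kb. It was 9.47% when at least 50% of a member had to be covered, 43% for a peak within 1 kb and 11.5% for NSC Bmi1Over peaks with a −log10 q of at least 3. The share touching an exon (12.6%) was 14.3% at the q limit, 22.8% at the fold limit, 17.7% at the length limit and 10.1% beyond 10 kb from a TSS. The CpG island-like share (1.84%) was 4.41% at the fold limit, 1.29% beyond 10 kb and 6.4% for members without another peak within 5 kb. The median GC content (44.7%) was 43.8%, 43.7% and 46.7% at the fold limit, the length limit and without another peak within 5 kb. The cause was not tested. The other alternatives stayed within the intervals.

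The edgeR fit called 13 hosts (5.42%) and 2.15% of all genes. DESeq2 called 31 hosts (30 higher, 11 of the 13 among them) and 9.64% of all genes. Library size alone called 20 (18 higher, 2 lower) and 3.46%, with the median of all genes at −0.17. The fit with any read kept called 56 of 360 hosts (51 higher, 5 lower) and 8.25%. With the replicate number as a replicate block there were 64 (59 higher, 5 lower) and 22.3%. The deviations of same-numbered libraries correlated at 0.235, but with 2 numbers and no label of a shared batch the numbers were not taken as pairs. Leaving out 1 culture at a time gave between 11 and 50 calls, with between 1.11% and 15.6% of all genes called, with the lone sample assumed to vary like the other group. The part of ChIPSeq depth in the shares of overlapped members was not tested. The methods of the study give read totals per pair of replicates and not which total belongs to the library kept, so no shares were scaled by depth, and the 1 library per condition allows no test of any peak.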
